A study of Mus musculus with 10 samples.

Results

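Metalloproteases of the MMP, ADAM and ADAMTS families and their TIMP inhibitors were examined in RNA from sorted cells of the adult mouse prostate. Members were every gene whose symbol names it as an MMP, an ADAM, an ADAMTS or a TIMP. No measured value decided between genes of these families, but the families were chosen with earlier results of these data known. The rule gave 79 genes of the 24616 in the table: 23 MMP, 33 ADAM, 19 ADAMTS and 4 TIMP genes. RefSeq lists 80 such protein-coding genes, and Adam34l alone had no value under its own symbol. C57BL/6 mice aged 8 to 12 weeks were the source, and the labels name no genotype or treatment that differs between groups. Cells negative for lineage markers (Lin-) were separated by the surface proteins CD24, CD49f (integrin alpha 6) and Sca-1, a protein encoded by Ly6a. Luminal cells, CD24 high and CD49f low, gave 3 libraries without Sca-1 (Sca-1- luminal) and 3 with it (Sca-1+ luminal). Basal cells, CD24 low and CD49f high, gave 2 libraries, and stromal cells, negative for both proteins, gave 2. The labels list a culture protocol beside all 10 libraries and do not state whether the sorted cells had been cultured, nor whether libraries came from separate animals. The p-values therefore measure the spread between these libraries only.

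The 3 protease families share a zinc-dependent catalytic domain. MMPs are secreted or membrane-bound enzymes that cut matrix proteins and other proteases, and they are made as inactive precursors. Many ADAMs are membrane proteins that shed the outer part of other surface proteins, although some are catalytically inactive and many are restricted to testis. ADAMTS enzymes are secreted, and cut proteoglycans, procollagens or proteins of microfibrils. TIMPs are small secreted inhibitors that block the active site of MMPs, and TIMP3 also blocks several ADAM and ADAMTS enzymes. In the prostate, a secretory epithelium rests on basal cells and a basement membrane, with fibroblasts and smooth muscle outside it.

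Each library held 20.3 to 27.3 M (mega) fragments, as read from the spacing of low values, and 9860 to 11364 genes stood at 1 FPKM or more. FPKM counts fragments per kilobase of a transcript and per unit of depth, so levels of different genes can be compared. Each gate's own markers were higher in it than in the Sca-1- luminal gate: 5 of 5 basal markers in basal libraries, 8 of 8 fibroblast markers in stromal libraries and 5 of 5 proximal luminal markers in Sca-1+ luminal libraries. The 8 fibroblast markers were also all higher in the Sca-1+ luminal gate, and unevenly so. Of 5 smooth muscle markers, Des alone was called higher in the stromal than in the Sca-1- luminal gate. The fibroblast markers summed to between 342 and 4944 FPKM there, against 76.2 to 136 FPKM in Sca-1- luminal and 5230 to 7007 FPKM in stromal libraries. These are sorted pools, so more cells of a type and more RNA per cell cannot be told apart. Replicates correlated at 0.936 to 0.971 in the Sca-1- luminal, 0.84 to 0.95 in the Sca-1+ luminal, 0.975 in the basal and 0.963 in the stromal gate, across 12507 genes.

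Of the 79 members, 42 reached 1 FPKM in at least 2 libraries and were tested: 14 MMP, 11 ADAM, 13 ADAMTS and all 4 TIMP genes. A further 21 were measured at low levels, none above the 1.94 FPKM of Adamts16 in stromal replicate 1. The last 16, of which 14 are ADAM genes and the others are Mmp1a and Mmp1b, were listed at 0 in every library. The number of members at 1 FPKM or more was 38 and 37 in the stromal libraries and 23 and 24 in the basal libraries. It was 21, 18 and 18 in the Sca-1- luminal and 36, 29 and 24 in the Sca-1+ luminal libraries. The stromal gate thus held the most members, and the Sca-1- luminal gate the fewest, without overlap between these 2 groups. All genes at 1 FPKM or more numbered 10475 and 10721 in stromal and 10589, 10136 and 10735 in Sca-1- luminal libraries, which overlapped. They numbered 10071 and 9860 in basal and 11360, 11364 and 10774 in Sca-1+ luminal libraries. Of the tested members, Adamts12, Adamts14, Mmp9 and Mmp28 reached that level in libraries of 1 gate only.

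The 4 comparisons made used all gates. They share libraries, so their results are not independent of each other. A gene was called where limma's test on log2(FPKM + 1), adjusted by the Benjamini-Hochberg method over the 12507 genes, gave a value under 0.05. In the stromal against the Sca-1- luminal gate, 30 members were higher, 4 lower and 8 not called. Over all genes 52.6% were called there, 25.2% higher and 27.4% lower. The median difference of the tested members was 1.4 on the log2 scale, against -0.06 over all genes. Basal against Sca-1- luminal libraries gave 6 members higher, 5 lower and 31 not called, where 46.3% of all genes were called, 20.2% higher and 26% lower. The member medians were 0.18 there and -0.05 over all genes, and the 11 called of 42 fall below the share of all genes. Under median-of-ratios scaling 9 members were higher and 3 lower in that comparison, and under quantile normalization 8 and 3. Sca-1+ against Sca-1- luminal libraries gave 19 higher, 2 lower and 21 not called, beside 35.4% of all genes (21.9% higher, 13.5% lower). The medians were 0.81 for members and 0.19 for all genes. Median-of-ratios scaling moved the latter to 0.02, with 16 members higher and 2 lower, and quantile normalization moved it to -0.07, with 14 and 2. In the stromal against the basal gate, 21 members were higher, 4 lower and 17 not called, beside 22.6% of all genes (13.5% higher, 9.12% lower). The medians were 1.26 and 0.02. Leaving out a basal or stromal library lowered the count of all genes called in stromal against basal and in basal against Sca-1- luminal libraries. The count of members called moved with single libraries in the same 2 comparisons. Between stromal and basal libraries it dropped from 25 to 7 and 10 without basal replicates 1 and 2, and to 10 and 12 without stromal replicates 1 and 2. Between basal and Sca-1- luminal libraries it was 7 without either basal library, and 17 without Sca-1+ luminal replicate 3. Members that passed the filter through a gate where they are high tend to differ by that choice, so these counts describe the list and are no test of it.

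**Figure D1:**
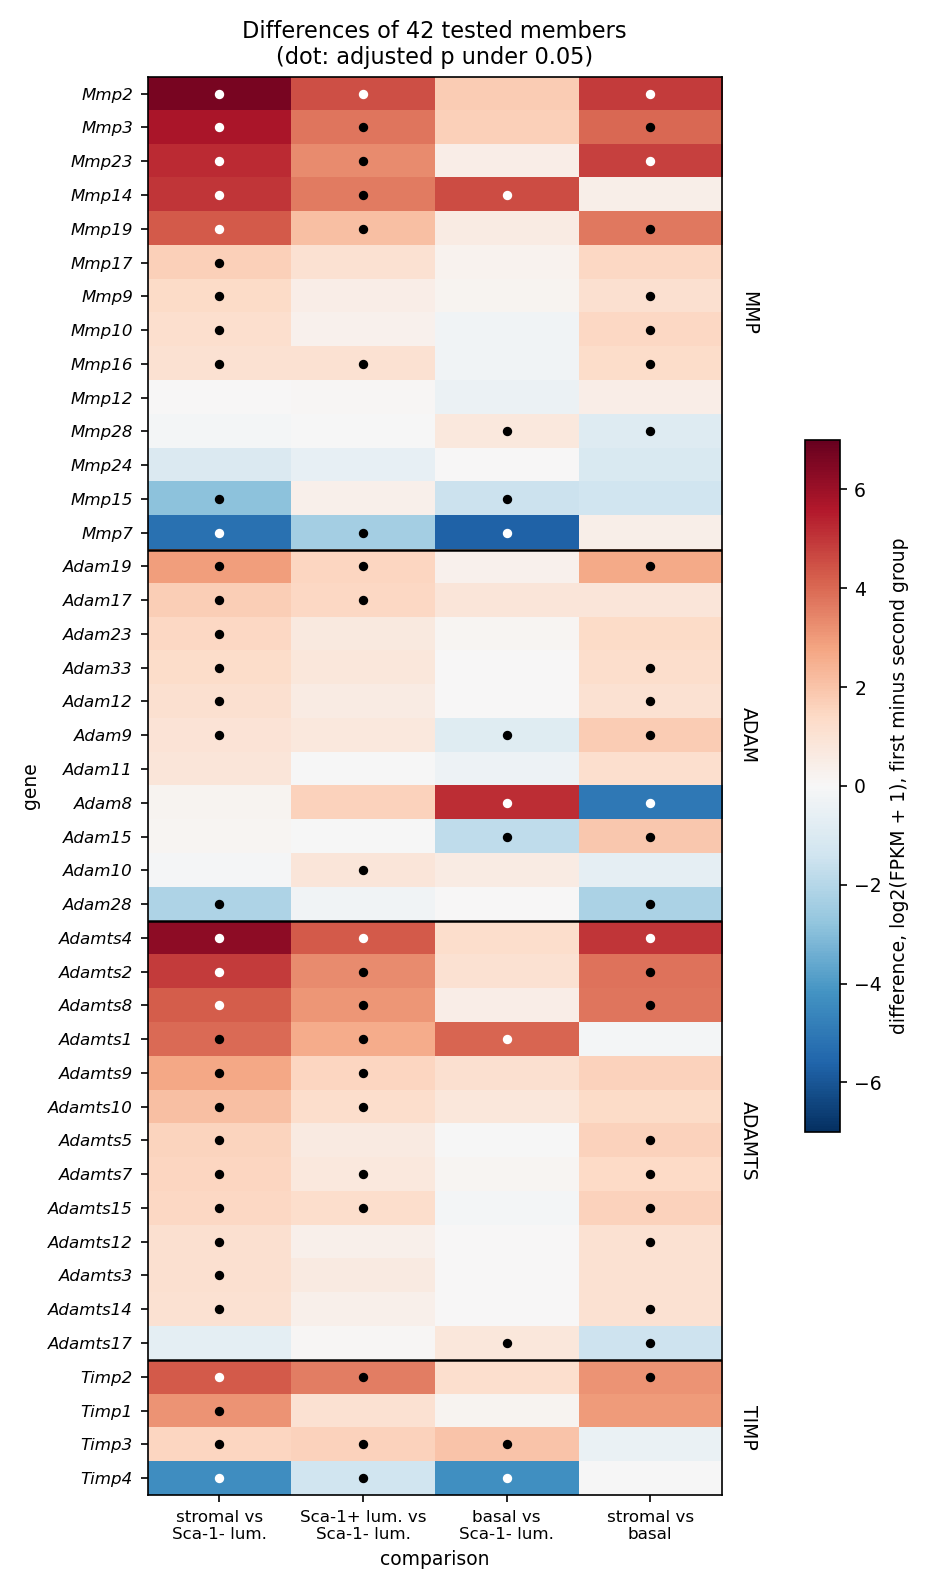
Difference in log2(FPKM + 1) between 2 gates (colour, first minus second) for the 42 tested members (rows, grouped by family and ordered by the stromal against Sca-1- luminal difference) in 4 comparisons (columns); a dot marks an adjusted p under 0.05. In the ADAMTS block 12 of 13 genes are called higher in the stromal than in the Sca-1- luminal gate, beside 25.2% of all genes. Mmp7 and Timp4 are called lower in 3 of the 4 columns.

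Of the MMP genes, Mmp7 had the highest level in the secretory gate. Mmp7 encodes matrilysin, a small secreted MMP made by many glandular epithelia. Its gene lies on chromosome 9 (chr9:7692090-7699585, plus strand, mm10). Its levels were 843, 1439 and 1522 FPKM in the Sca-1- luminal gate, and 136, 241 and 376 FPKM in the Sca-1+ luminal gate. Basal libraries stood at 19.3 and 28.7 FPKM, and stromal libraries at 17.8 and 54.4 FPKM. The 2 luminal gates overlapped neither with each other nor with the rest, whereas basal and stromal libraries overlapped. Mmp7 was lower by limma's test in the basal gate (log2 difference -5.65, SE 0.54, adjusted p = 5.91e-05), the stromal gate (-5.25, SE 0.54, adjusted p = 9.8e-05) and the Sca-1+ luminal gate (-2.4, SE 0.483, adjusted p = 0.00588), each against the Sca-1- luminal gate. Stromal and basal libraries did not differ beyond their spread (0.4, SE 0.592, adjusted p = 0.707). Mmp7 made up 97.2%, 98.0% and 98.6% of the summed FPKM of all MMP genes in the Sca-1- luminal libraries. That share was 20.9%, 41.7% and 79.5% in the Sca-1+ luminal, 10.3% and 10.4% in the basal, and 2.69% and 5.35% in the stromal libraries. Genes of other luminal proteins were compared with it. Relative to the Sca-1- luminal mean, Mmp7 stood at 1.52% and 2.26% in basal and at 1.4% and 4.29% in stromal libraries. Pbsn, the androgen-driven probasin gene, stood at 1.38% and 2.81%, and at 1.25% and 4.5%. In the Sca-1+ luminal libraries Mmp7 stood at 10.7%, 19.0% and 29.6%, Pbsn at 6.57%, 14.3% and 9.2%, and Msmb, another secreted protein, at 6.96%, 15.0% and 0.637%. The keratin genes Krt8 and Krt18 differed from these in the basal gate, at 58.0% to 118% of the Sca-1- luminal mean. The part of luminal RNA in the basal and stromal Mmp7 values was not tested.

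**Figure D2:**
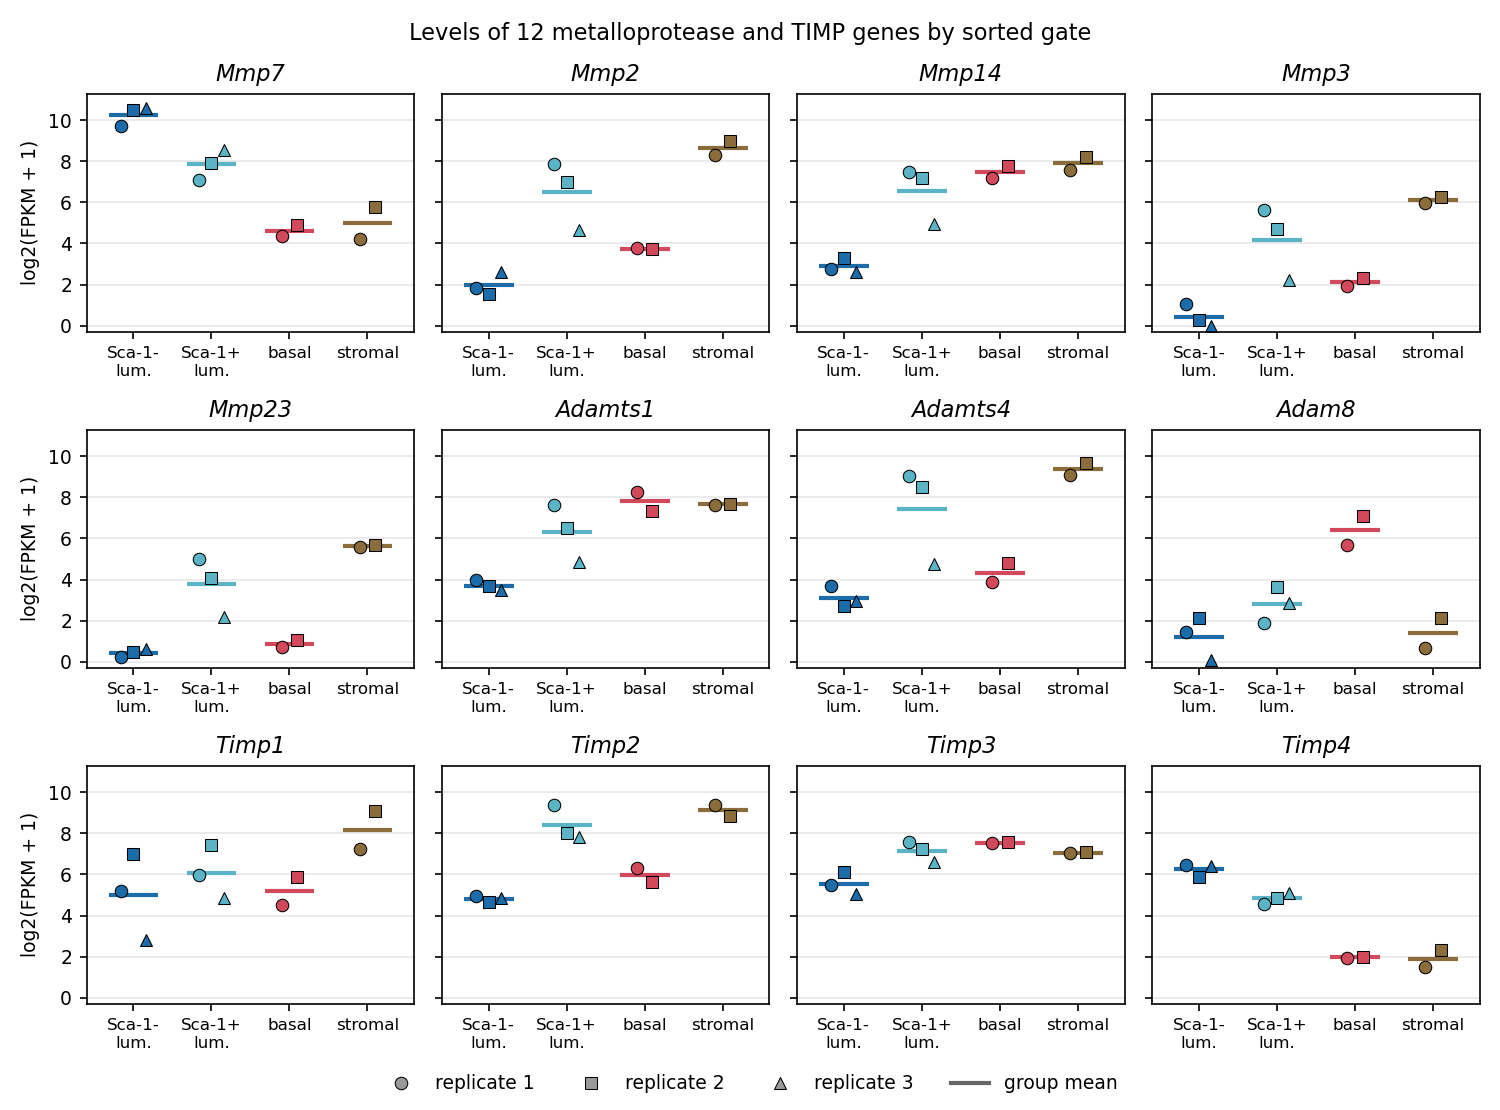
Levels as log2(FPKM + 1) of 12 members in each library (points, shape gives the replicate) by sorted gate, with group means as bars. Mmp7 and Timp4 are highest in the Sca-1- luminal gate, lower in the Sca-1+ luminal gate and lowest in the basal and stromal gates. Group means of Mmp2, Mmp3, Mmp23, Adamts4 and Timp2 are highest in the stromal gate, although Timp2 overlaps with the Sca-1+ luminal gate. Adam8 peaks in the basal gate.

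Timp4 was the inhibitor with the luminal pattern. Sca-1- luminal libraries held 86.4, 56.9 and 85.3 FPKM of it, and Sca-1+ luminal libraries 22.3, 28.4 and 33.3 FPKM. Basal libraries held 2.82 and 2.97 FPKM, and stromal libraries 1.78 and 4.06 FPKM. The 2 luminal gates did not overlap with each other or with the other gates. Timp4 was lower than in the Sca-1- luminal gate by 4.29 (SE 0.311, adjusted p = 1.91e-05, limma) in basal, 4.34 (SE 0.311, adjusted p = 2.45e-05) in stromal and 1.41 (SE 0.278, adjusted p = 0.00554) in Sca-1+ luminal libraries. Its difference between stromal and basal libraries was -0.05 (SE 0.341, adjusted p = 0.948).

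Mmp15 and Adam28 were the other members called lower in the stromal than in the Sca-1- luminal gate. Mmp15 encodes a membrane-type MMP. The Sca-1- luminal gate held 9.31, 13.3 and 8.45 FPKM, the Sca-1+ luminal gate 6.1, 12.1 and 29.5 FPKM, the basal gate 3.09 and 2.87 FPKM, and the stromal gate 0.23 and 0.88 FPKM. The stromal difference was -2.88 (SE 0.514, adjusted p = 0.00152, limma). The basal one, -1.49, was called at an adjusted p of 0.0383 and lost that call under 9 alternative settings. Adam28, a membrane ADAM, ran at similar levels in the 3 epithelial gates: 7.25, 4.14 and 8.75 FPKM in Sca-1- luminal, 3.38, 4.97 and 8.81 in Sca-1+ luminal, and 8.78 and 5.04 in basal libraries. In stromal libraries it stood at 0.27 and 1.17 FPKM, below every epithelial library (-2.17 against Sca-1- luminal, SE 0.431, adjusted p = 0.00263, limma). Against basal it was -2.21 (SE 0.473, adjusted p = 0.00968), a call lost without basal replicate 1 or stromal replicate 1.

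Several matrix-cutting MMPs were highest in the stromal gate. Mmp2 encodes gelatinase A, which MMP14 activates at the cell surface with TIMP2 as a bridge. Mmp2 stood at 315 and 504 FPKM in stromal libraries against 2.54, 1.91 and 5.12 FPKM in Sca-1- luminal and 12.6 and 12.1 FPKM in basal libraries. It was higher by 6.65 (SE 0.761, adjusted p = 0.000168, limma) than in Sca-1- luminal and by 4.91 (SE 0.834, adjusted p = 0.0036) than in basal libraries. No stromal library overlapped with either gate. Mmp3, stromelysin-1, followed the same order, with 62.5 and 76.1 FPKM in stromal, 2.85 and 3.97 in basal, and 1.07, 0.21 and 0 in Sca-1- luminal libraries. Mmp23, a short membrane-anchored MMP, stood at 47.7 and 50.4 FPKM in stromal libraries and at no more than 1.05 FPKM in any basal or Sca-1- luminal library. The differences between stromal and Sca-1- luminal libraries were 5.69 (SE 0.8, adjusted p = 0.000453) for Mmp3 and 5.2 (SE 0.635, adjusted p = 0.000233) for Mmp23. Against basal libraries they were 4.0 (SE 0.876, adjusted p = 0.0107) for Mmp3, a call lost when any 1 of the 4 libraries was left out, and 4.76 (SE 0.696, adjusted p = 0.00199) for Mmp23. Mmp19 was called as well, at 15.2 and 23.7 FPKM in stromal libraries. The remaining MMPs called higher there, Mmp9, Mmp10, Mmp16 and Mmp17, had stromal means of 1.51 to 3.03 FPKM, so their calls concern low levels.

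Mmp14 and Mmp2 differed in their distribution over the gates. Mmp14 encodes the membrane-type MMP that activates the Mmp2 product. It stood at 192 and 296 FPKM in stromal and at 144 and 221 FPKM in basal libraries, and these ranges overlapped. The Sca-1- luminal libraries held 5.87, 8.86 and 5.12 FPKM, below all of them. Mmp14 was higher than in the Sca-1- luminal gate by 5.0 (SE 0.646, adjusted p = 0.000305, limma) in stromal and by 4.59 (SE 0.646, adjusted p = 0.000448) in basal libraries. The stromal minus basal difference was 0.41 (SE 0.707, adjusted p = 0.748). Mmp14 exceeded Mmp2 in FPKM by 11.5 and 18.2 times in the basal libraries, whereas the ratio was 0.609 and 0.586 in the stromal libraries. The basal Mmp14 levels amounted to 59.1% and 90.6% of the stromal mean. The 8 fibroblast markers in the same libraries stood at 0.448% to 15.0% and at 0.409% to 10.5% of theirs.

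Timp2, the bridge in Mmp2 activation, stood at 660 and 467 FPKM in stromal, 77.9 and 49.5 in basal, and 30.1, 24.7 and 27.7 FPKM in Sca-1- luminal libraries. The order stromal, basal, Sca-1- luminal held in every library of these gates. Sca-1+ luminal libraries held 661, 260 and 224 FPKM, which overlapped with the stromal libraries. Stromal and Sca-1+ luminal libraries were not tested against each other. It was called against Sca-1- luminal (4.29, SE 0.44, adjusted p = 9.64e-05, limma) and basal libraries (3.14, SE 0.482, adjusted p = 0.00246), whereas basal against Sca-1- luminal was not called (1.15, SE 0.44, adjusted p = 0.0556). Timp3, whose product binds to the matrix, was not called between basal and stromal libraries. It stood at 182 and 188 FPKM in basal and at 131 and 135 FPKM in stromal libraries, without overlap, against 43.5, 69.5 and 31.8 FPKM in Sca-1- luminal libraries. Timp3 was higher than in the Sca-1- luminal gate by 1.99 (SE 0.363, adjusted p = 0.0018) in basal and 1.52 (SE 0.363, adjusted p = 0.00655) in stromal libraries, and the last 2 gates differed by -0.47 (SE 0.398, adjusted p = 0.458).

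Timp1, an inhibitor induced by many cytokines and growth factors, spread widely within each gate. It stood at 151 and 544 FPKM in stromal, 21.7 and 57.2 in basal, 62.2, 170 and 27.5 in Sca-1+ luminal, and 35.8, 128 and 6.13 FPKM in Sca-1- luminal libraries. The stromal values exceeded all Sca-1- luminal and basal ones, and the other 3 gates overlapped. The stromal difference from Sca-1- luminal libraries was 3.15 (SE 1.15, adjusted p = 0.0415, limma). That call was lost in 9 alternative settings, with adjusted p values up to 0.246 without stromal replicate 2. Stromal against basal libraries gave 2.99 (SE 1.25, adjusted p = 0.122), and basal against Sca-1- luminal libraries 0.17 (SE 1.15, adjusted p = 0.927). Sca-1- luminal replicate 3, the library with the lowest Timp1 value, was also the lowest of its gate for Adam8 and for Plaur and Plat, which encode the urokinase receptor and tissue plasminogen activator.

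The inhibitor with the highest level differed among libraries. Timp3 led in both basal libraries and Timp2 in the 3 Sca-1+ luminal libraries. Timp4 led in Sca-1- luminal replicates 1 and 3 and Timp1 in replicate 2, while Timp2 and Timp1 led in stromal replicates 1 and 2. The summed TIMP level divided by the summed MMP level was 0.226, 0.19 and 0.0977 in the Sca-1- luminal libraries. The ratios were 1.52 and 1.08 in the basal gate, 1.43 and 1.13 in the stromal gate, and 1.44, 1.05 and 0.81 in the Sca-1+ luminal gate. The Sca-1- luminal ratios lay below all others, and Mmp7 made up nearly all of their denominator. All inhibitor genes but Timp2 lie inside a synapsin gene on the opposite strand: Timp1 (chrX:20870166-20874735) in Syn1, Timp3 (chr10:86300372-86349506) in Syn3 and Timp4 (chr6:115241892-115252205) in Syn2. Whether counting used strand is not given in the sources used here. Syn1 and Syn3 were listed at 0 in every library, and Syn2 did not exceed 1.16 FPKM.

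Of the 13 ADAMTS genes tested, 12 were called higher in the stromal than in the Sca-1- luminal gate. The counts were 9 of 14 MMP, 6 of 11 ADAM and 3 of 4 TIMP genes, beside 25.2% of all genes. Adamts12 and Adamts14 passed the filter through stromal libraries only, so the ADAMTS count is no test. Under a filter at 5 FPKM these and Adamts3, Adamts5, Adamts7, Adamts10 and Adamts15 were not tested. Adamts4, aggrecanase-1, cuts versican and related proteoglycans and was the most abundant ADAMTS in the stroma. Its levels were 535 and 817 FPKM in stromal, 13.5 and 27.2 in basal, and 11.7, 5.47 and 6.84 FPKM in Sca-1- luminal libraries. It was higher in the stromal gate by 6.26 (SE 1.04, adjusted p = 0.00104, limma) than in Sca-1- luminal and by 5.03 (SE 1.14, adjusted p = 0.0122) than in basal libraries. The call against basal was lost without basal replicate 1 or either stromal replicate. Adamts2, a procollagen N-proteinase, stood at 34.2 and 44.2 FPKM in stromal libraries and at 1.9 and 1.84 FPKM in basal libraries. Sca-1- luminal libraries held 0.22, 0.18 and 0.71 FPKM of it. Adamts8, another proteoglycan-cutting enzyme, stood at 11.2 and 36.7 FPKM in stromal libraries, 0 and 1.55 in basal, and 0, 0.52 and 0 in Sca-1- luminal libraries. The stromal minus Sca-1- luminal differences were 4.89 (SE 0.789, adjusted p = 0.00091) for Adamts2 and 4.22 (SE 0.908, adjusted p = 0.00389) for Adamts8. Against basal they were 3.8 (adjusted p = 0.0126) and 3.75 (adjusted p = 0.0241), and both calls were lost without basal replicate 1, basal replicate 2 or stromal replicate 2, Adamts2 also without stromal replicate 1.

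Adamts1 was high in the basal as well as the stromal gate. The gene (chr16:85793827-85803113, minus strand) encodes another proteoglycan-cutting enzyme that is induced by growth factors and hormones. Its levels were 310 and 159 FPKM in basal and 198 and 206 FPKM in stromal libraries, which overlapped. Sca-1- luminal libraries held 14.7, 11.7 and 10.1 FPKM, below all of them. It was higher by 4.1 (SE 0.648, adjusted p = 0.000862, limma) in the basal and by 3.96 (SE 0.648, adjusted p = 0.000978) in the stromal gate than in the Sca-1- luminal gate. The stromal minus basal difference of -0.14 (SE 0.71, adjusted p = 0.935) changed sign without basal replicate 1. Adamts1 was the leading ADAMTS in both basal and all Sca-1- luminal libraries.

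Adamts17, whose product acts on microfibrils, was the ADAMTS not called higher in the stroma. It stood at 2.9 and 2.08 FPKM in basal, 1.37, 0.77 and 0.97 in Sca-1- luminal, and 0.12 and 0.4 FPKM in stromal libraries. It was lower in stromal than in basal libraries (-1.47, SE 0.3, adjusted p = 0.00806, limma), a call lost without basal replicate 1 or stromal replicate 1. Its higher level in basal than in Sca-1- luminal libraries (0.78, SE 0.274, adjusted p = 0.0418) lost the call in 10 alternative settings. The remaining stromal ADAMTS calls against the Sca-1- luminal gate were Adamts9 at a stromal mean of 16.1 FPKM and 7 genes with means of 1.15 to 4.18 FPKM. These 7 were Adamts3 and Adamts14, relatives of Adamts2, the aggrecanase Adamts5, and Adamts7, Adamts10, Adamts12 and Adamts15.

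Adam8 marked the basal gate among the ADAM genes. It encodes a membrane sheddase best known from leukocytes. Basal libraries stood at 51.1 and 134 FPKM. Sca-1- luminal libraries held 1.74, 3.3 and 0.04 FPKM, Sca-1+ luminal libraries 2.69, 11.5 and 6.37 FPKM, and stromal libraries 0.58 and 3.33 FPKM. Both basal libraries exceeded every other library. Adam8 was higher by 5.18 (SE 0.731, adjusted p = 0.000456, limma) in basal than in Sca-1- luminal libraries, and lower by 5.0 (SE 0.801, adjusted p = 0.00284) in stromal than in basal libraries. The pan-leukocyte gene Ptprc was at 0.0253 and 0.064 FPKM in the basal libraries and the myeloid gene Itgam at 0.0281 and 0.0215 FPKM. The 10 leukocyte markers summed to 13.0 to 21 FPKM in basal libraries, within the 4.77 to 29.6 FPKM of the other gates. Most of the basal sum was Cd68, a lysosomal gene of macrophages, at 11.4 and 17.4 FPKM, against 0.982 to 18.3 FPKM in the other gates. S100a9 was listed at 0 in all 10 libraries. Of the 10 markers 4 were tested, and none was called between basal and Sca-1- luminal libraries. The part of leukocyte RNA in the Adam8 values was not tested. Mmp28, epilysin, was called higher in the basal gate at 1.12 and 1.11 FPKM, a low level (0.76, SE 0.217, adjusted p = 0.0174). It was lower in stromal than in basal libraries by 0.92 (adjusted p = 0.0219), a call lost without either stromal replicate and with a pseudocount of 0.1, which also ended the call against Sca-1- luminal libraries. Without either basal library, with the highest transcript per gene and with a filter at 5 FPKM, Mmp28 did not pass the filter and was not tested.

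The main ADAM sheddases were present in every gate. Adam10, which sheds cadherins and Notch, had means of 15.9 ± 0.237 (SD, n = 3) FPKM in Sca-1- luminal and 29.9 ± 5.76 (SD, n = 3) in Sca-1+ luminal libraries. The basal mean was 23.8 ± 1.35 (SD, n = 2) and the stromal mean 15.5 ± 4.02 (SD, n = 2). The only call was for the Sca-1+ luminal gate (0.85, SE 0.206, adjusted p = 0.0128, limma). Adam17, which releases TNF and EGF-family ligands, had means of 3.07 ± 1.38 (SD, n = 3) FPKM in Sca-1- luminal and 11.7 ± 0.273 (SD, n = 2) in stromal libraries. It was higher in stromal (1.7, SE 0.341, adjusted p = 0.0027) and in Sca-1+ luminal libraries (1.44, SE 0.305, adjusted p = 0.00739) than in Sca-1- luminal libraries. Adam9 was the leading ADAM of both stromal libraries, at 40.6 ± 2.82 (SD, n = 2) FPKM against 11.0 ± 1.62 (SD, n = 2) in basal libraries (1.8, SE 0.337, adjusted p = 0.00549). Its lower level in basal than in Sca-1- luminal libraries (-0.84, adjusted p = 0.0486) lost the call in 12 alternative settings. Other stromal calls against the Sca-1- luminal gate were Adam19 at a mean of 8.49 FPKM, the catalytically inactive Adam23 at 3.72 FPKM, and Adam12 and Adam33 at 1.23 and 1.52 FPKM.

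The longer of a pair of Adam15 transcripts was above 0 in luminal libraries only. Adam15 (chr3:89338542-89349996, minus strand, mm10) encodes a membrane ADAM whose cytoplasmic tail varies by splicing. Its deposited transcripts include one of 3617 nt and one of 3470 nt with the same ends. The 147 nt between them equal a pair of exons of the GENCODE annotation, chr3:89340863-89340937 of 75 nt and chr3:89340401-89340472 of 72 nt, both whole multiples of a codon. That the deposited transcripts differ by this pair is inferred from their lengths. The annotated sequence with and without the pair is shown, read on the minus strand. The exons are in capitals and 12 bases of each neighbouring exon in lower case.
Exons in: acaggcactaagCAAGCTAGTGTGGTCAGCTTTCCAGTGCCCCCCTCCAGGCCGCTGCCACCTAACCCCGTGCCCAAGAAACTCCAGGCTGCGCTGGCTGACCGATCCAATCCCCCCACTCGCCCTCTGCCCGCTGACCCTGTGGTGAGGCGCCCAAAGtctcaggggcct
Exons out: acaggcactaagtctcaggggcct

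The longer transcript had 14.0, 14.2 and 14.1 FPKM in the Sca-1- luminal gate and was listed at 0 in all basal and stromal libraries. The shorter transcript had 2.65 FPKM in Sca-1- luminal replicate 3 and was at 0 in the other libraries of that gate. It stood at 16.3 and 16.1 FPKM in stromal and at 4.38 and 3.09 FPKM in basal libraries. In Sca-1+ luminal libraries both occurred, at 3.11, 4.13 and 5.27 FPKM for the longer and 19.0, 11.5 and 3.88 FPKM for the shorter. The longer transcript thus made up 100%, 100% and 84.2% of the pair in the Sca-1- luminal gate and 14.1%, 26.4% and 57.6% in the Sca-1+ luminal gate, against 0% in each basal and stromal library. The gene as a whole was at 15.0 ± 1.56 (SD, n = 3) FPKM in Sca-1- luminal and 16.2 ± 0.163 (SD, n = 2) FPKM in stromal libraries, a difference of 0.11 (SE 0.323, adjusted p = 0.797, limma). Summed over transcripts, it was lower in basal than in Sca-1- luminal libraries (-1.76, SE 0.323, adjusted p = 0.00185). With the highest transcript per gene in place of the sum, which kept the shorter transcript alone, that difference turned to 1.61. It was not called (adjusted p = 0.0755, limma). These shares are the authors' model-based division of reads between transcripts, the 2 were singled out after their values were seen, and no test was made. The deposited files do not list the exons of each transcript.

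**Figure D3:**
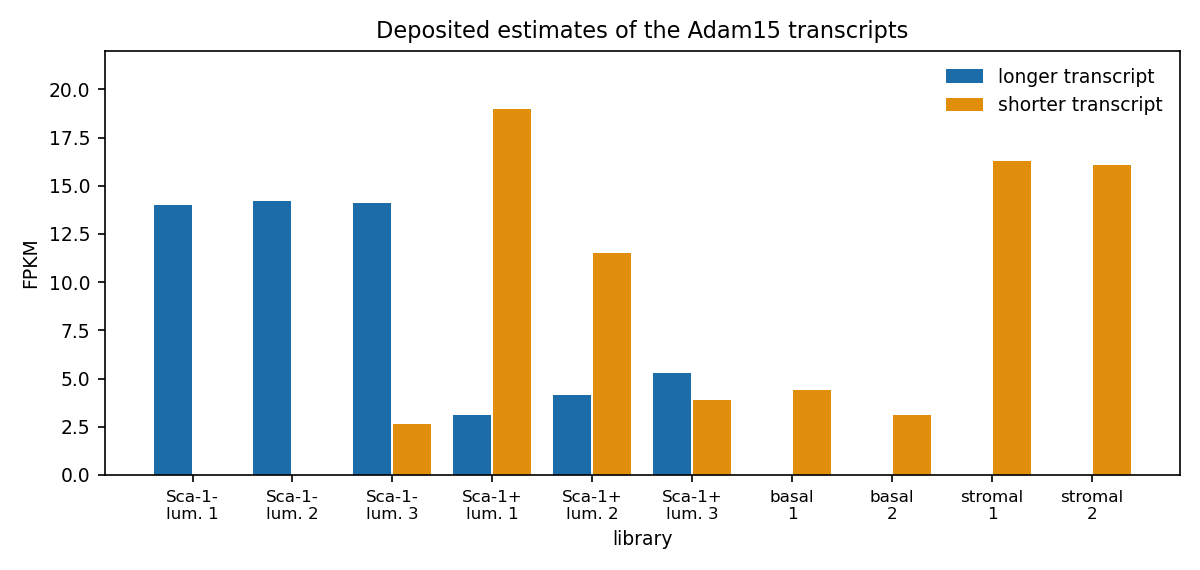
FPKM of the longer (3617 nt) and shorter (3470 nt) Adam15 transcript in each of the 10 libraries, as deposited. The longer form is near 14 FPKM in the 3 Sca-1- luminal libraries and at 0 in basal and stromal libraries, and both forms appear in the 3 Sca-1+ luminal libraries.

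In the Sca-1+ luminal gate, 19 of 42 tested members were called higher than in the Sca-1- luminal gate, beside 21.9% of all genes. The 19 spanned all 4 families. Under median-of-ratios scaling 16 were called higher, and under quantile normalization 14. The largest differences were for Mmp2 (4.53, SE 0.681, adjusted p = 0.00167, limma), Adamts4 (4.32, SE 0.928, adjusted p = 0.00784), Mmp3 (3.74, adjusted p = 0.00485), Mmp14 (3.64, adjusted p = 0.00213), Timp2 (3.58, SE 0.394, adjusted p = 0.000483) and Mmp23 (3.32, adjusted p = 0.00295). Mmp2 stood at 235, 127 and 24.6 FPKM in the 3 libraries, Adamts4 at 519, 364 and 25.8, and Mmp3 at 48.8, 25.0 and 3.65 FPKM. Mmp23 stood at 30.8, 16.1 and 3.59 FPKM. In each of these genes replicate 3 was the lowest of the 3, and still above every Sca-1- luminal library. Mmp14 stood at 177, 145 and 30.1 FPKM, Adamts1 at 194, 91.3 and 27.7, Timp2 at 661, 260 and 224, and Timp3 at 193, 151 and 97.9 FPKM. Timp1 was not called in this comparison (1.06, SE 1.02, adjusted p = 0.435).

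Replicate 3 was also the lowest of the 3 libraries for each of the 8 fibroblast markers. As a percentage of the stromal mean, the 8 markers stood at 12.7% to 114% in replicate 1, 19.8% to 63.6% in replicate 2 and 3.96% to 7.1% in replicate 3. In replicate 3, Mmp2 (6.01%), Adamts2 (5.88%), Adamts8 (5.41%), Mmp3 (5.27%), Mmp19 (5.1%) and Adam19 (4.46%) lay within the range of the markers, and Adamts4 (3.82%) lay just below it. Of the 16 members compared in this way, all called higher in the stromal gate at a mean of 5 FPKM or more, 9 lay above that range. They were Adam17 (80.3%), Timp3 (73.5%), Adam9 (69.3%), Timp2 (39.7%), Adamts1 (13.7%), Mmp14 (12.3%), Adamts9 (12.3%), Timp1 (7.91%) and Mmp23 (7.32%). Of these, Timp3, Adam9 and Adam17 also stood at 13.1% to 65.1% of the stromal mean in the Sca-1- luminal libraries. There Timp1 stood at 1.76% to 36.8% and Adamts9 at 7.18% to 12.9%, ranges that take in their values in Sca-1+ luminal replicate 3. Adamts1 stood at 5.01% to 7.3% in the Sca-1- luminal libraries, Timp2 at 4.38% to 5.33%, Mmp14 at 2.1% to 3.63% and Mmp23 at 0.341% to 1.14%. The part of fibroblast RNA in these values was not tested. With replicate 3 as the lone Sca-1+ luminal library, an alternative chosen after its low fibroblast marker level was seen, 10 members were called in place of 21. The 9 that were shared with the call from all libraries included Timp2 (2.99, adjusted p = 0.00144), Mmp2 (2.69, adjusted p = 0.00589), Mmp14 (2.06, adjusted p = 0.0112), Mmp23 (1.76, adjusted p = 0.00701) and Mmp3 (1.77, adjusted p = 0.0268). Adamts4 (1.64, adjusted p = 0.0544), Adamts1 (1.14, adjusted p = 0.0809), Timp3 (1.08, adjusted p = 0.101), Mmp7 (-1.7, adjusted p = 0.0874) and Timp4 (-1.15, adjusted p = 0.0837) were not called there. In that fit the lone library is taken to vary like the other groups.

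**Figure D4:**
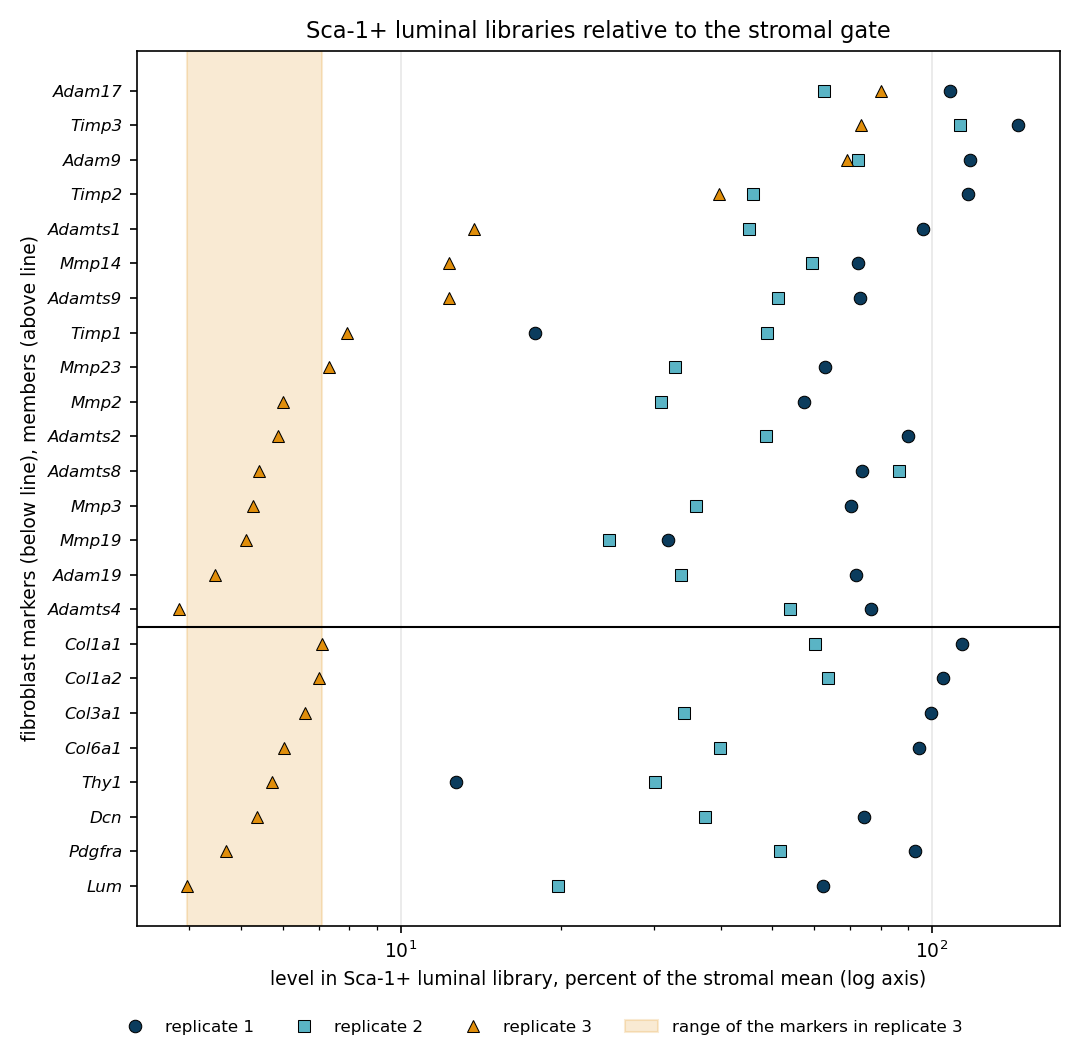
Level in each Sca-1+ luminal library (points) as a percentage of the mean of the 2 stromal libraries (log axis) for 8 fibroblast markers (below the line) and 16 members (above it); the shaded band is the range of the markers in replicate 3, from 3.96% to 7.1%. In replicate 3, 9 members lie to the right of the band, from Mmp23 at 7.32% to Adam17 at 80.3%.

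A cluster of 10 MMP genes lies on chromosome 9 (chr9:7272514-7699585, 427 kb): Mmp13, Mmp12, Mmp1b, Mmp3, Mmp1a, Mmp10, Mmp8, Mmp27, Mmp20 and Mmp7. Of these, 8 stayed under 3 FPKM in every library. The others were Mmp3, highest in the stromal gate, and Mmp7, at the far end of the cluster and highest in the Sca-1- luminal gate. The 2 genes of the cluster that exceeded 3 FPKM thus leaned towards opposite gates. Mmp10, stromelysin-2, next but one to Mmp3, had a stromal mean of 1.97 ± 0.383 (SD, n = 2) FPKM.

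**Figure D5:**
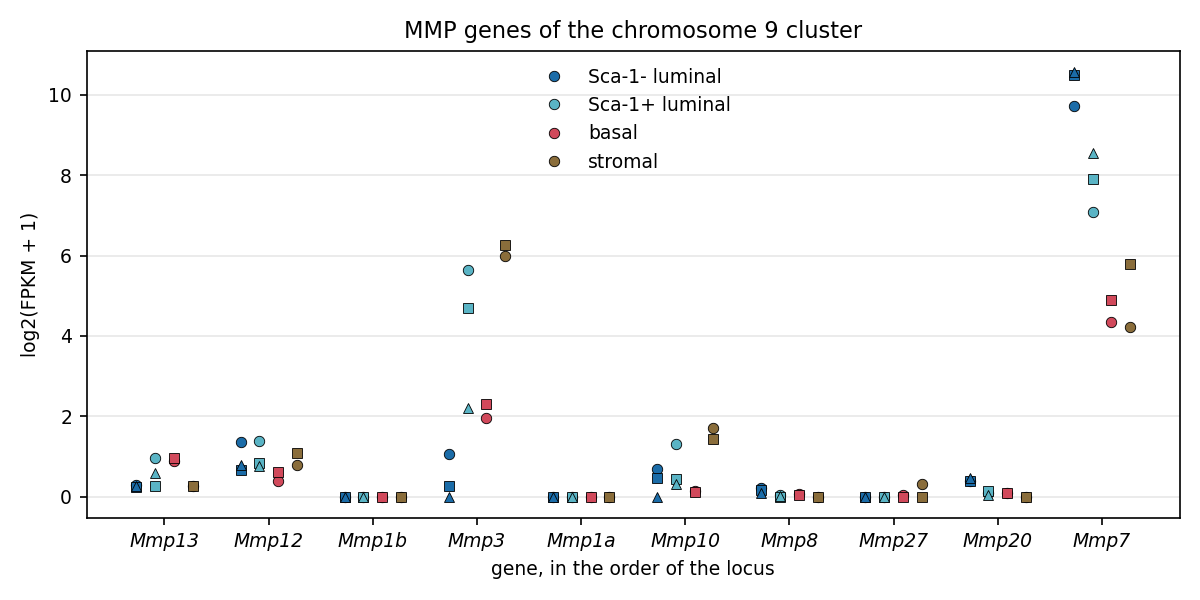
Levels as log2(FPKM + 1) of the 10 MMP genes of the chromosome 9 cluster in the order of the locus, in each library (points, coloured by gate, shape gives the replicate). Mmp7 exceeds the other 9 genes in the 6 luminal libraries and the basal libraries, and Mmp3 is highest in the stromal libraries.

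MMP promoters of this cluster are known for a site of the AP-1 factors Fos and Jun near the start. The motif TGANTCA, which reads the same on both strands, was searched in the 250 bases before the start in the RefSeq promoter table (GRCm38.p6), which held 49 of the 79 members. It occurred in 8 of 10 cluster genes (80.0%), with its first base 35 to 95 bases before the start. Outside the cluster 4 of 39 members with an entry held it (10.3%), and over all genes 2113 of 27025 did (7.82%). TATAAA, searched on the strand of the gene, occurred in 7 of the 10 (70.0%), against 8.94% of all genes. A match describes the letters and shows no binding. The 100 bases before the start are shown for the inducible Mmp13, for Mmp3 and its relative Mmp10, and for Mmp7. They are on the plus strand, with the motif in capitals.
Mmp13 chr9:7272414-7272513: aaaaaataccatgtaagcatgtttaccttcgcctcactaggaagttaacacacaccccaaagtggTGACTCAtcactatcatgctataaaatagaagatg
Mmp3 chr9:7445722-7445821: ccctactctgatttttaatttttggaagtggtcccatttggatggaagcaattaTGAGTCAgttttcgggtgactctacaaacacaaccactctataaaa
Mmp10 chr9:7502242-7502341: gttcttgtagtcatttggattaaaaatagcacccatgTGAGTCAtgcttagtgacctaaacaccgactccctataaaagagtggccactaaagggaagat
Mmp7 chr9:7691990-7692089: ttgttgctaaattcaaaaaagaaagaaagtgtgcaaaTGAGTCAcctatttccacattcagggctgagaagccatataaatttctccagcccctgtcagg
Genes with the motif thus ranged from Mmp7 at 1522 FPKM down to Mmp1a and Mmp1b, listed at 0.

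Genes that act with the members were described by lists. Over all genes, 25.2% were called higher in stromal, 21.9% in Sca-1+ luminal and 20.2% in basal than in Sca-1- luminal libraries. Stromal against basal libraries gave 13.5% higher and 9.12% lower. Of 12 proteoglycans and other secreted substrates of ADAMTS enzymes 7 were tested. All 7 were higher than in the Sca-1- luminal gate in both stromal and Sca-1+ luminal libraries, against 2 in basal libraries, and 6 were higher in stromal than in basal libraries. Of these 7, Col1a1, Col1a2, Col3a1 and Dcn are also among the 8 fibroblast markers, and Vcan, Bgn and Fbln1 are not. Vcan, the versican gene, stood at 29.0 and 43.9 FPKM in stromal, 3.65 and 4.84 in basal and at most 0.346 FPKM in Sca-1- luminal libraries. Of the 7 ADAMTS-like proteins, which lack the protease domain, 5 were tested and all 5 were higher in the stromal than in the Sca-1- luminal gate. Papln, the papilin gene, was the one lower in stromal than in basal libraries, where it stood at 11.7 and 7.86 FPKM. Of 6 tested metzincins outside the 3 families and their enhancers, 5 were higher in stromal and 1 in basal than in Sca-1- luminal libraries. Pcolce, which enhances the procollagen C-proteinase, stood at 199 and 252 FPKM in stromal libraries and at most 5.3 FPKM in basal and Sca-1- luminal libraries.

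Surface proteins shed by ADAM10 and ADAM17 formed another list. Of 22 tested, 18 were higher and 1 lower in basal than in Sca-1- luminal libraries, with a median of 2.53 against -0.05 over all genes. Stromal against Sca-1- luminal libraries gave 8 higher and 3 lower, with a median of 0.5 against -0.06, and Sca-1+ against Sca-1- luminal libraries 11 higher and 1 lower, with 1.2 against 0.19. In stromal against basal libraries none was higher and 10 were lower, where 22.6% of all genes were called. Against Sca-1- luminal libraries, 46.3% of all genes were called in basal, 52.6% in stromal and 35.4% in Sca-1+ luminal libraries. In the stromal comparison 11 of the 22 were not called, so the count called there is near the share of all genes. Hbegf, a ligand of the EGF receptor, stood at 521 and 565 FPKM in basal, 24.4 and 30.8 in stromal, and 88.3, 115 and 36.1 FPKM in Sca-1- luminal libraries. Tgfa, another such ligand, stood at 78.2 and 54.4 FPKM in basal libraries and at no more than 5.22 FPKM in stromal and Sca-1- luminal libraries. Egf was the one lower in basal libraries, at 1.93 and 1.7 FPKM against 92.9, 76.3 and 106 FPKM in Sca-1- luminal libraries. The differences between basal and Sca-1- luminal libraries were 2.9 for Hbegf, 3.78 for Tgfa and -5.03 for Egf, each called by limma.

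Of 22 regulators of activation and surface inhibitors 19 were tested. Against the Sca-1- luminal gate 9 were higher and 2 lower in stromal libraries, 8 and 2 in basal libraries, and 11 and 1 in Sca-1+ luminal libraries, where 52.6%, 46.3% and 35.4% of all genes were called. The 11 and 10 called of 19 in the stromal and basal comparisons are near these shares. In stromal against basal libraries 5 were higher and 2 lower, beside 22.6% of all genes called. Furin, the convertase that removes the propeptide of membrane-type MMPs and ADAMs, had 87.5 and 108 FPKM in the basal gate, and 19.3, 30.7 and 15.5 FPKM in the Sca-1- luminal gate. Plaur, the receptor of the plasminogen activator urokinase, stood at 784 and 1412 FPKM in basal libraries. Sca-1+ luminal libraries held 371, 602 and 1006 FPKM of it and overlapped with the basal ones. Plat, tissue plasminogen activator, stood at 1092 and 2031 FPKM in stromal and at 18.1 and 51.7 FPKM in basal libraries. Reck, a membrane-anchored inhibitor of several MMPs, stood at 25.0 and 30.3 FPKM in stromal and at no more than 1.26 FPKM in basal and Sca-1- luminal libraries. Between stromal and basal libraries Plat (5.55) and Reck (3.77) were called higher by limma, whereas Furin (-0.85) and Plaur (-2.72) were not called.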

How the data were processed

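RNA of 10 libraries in 4 sorted groups was made into cDNA with random and poly(dT) primers, per the labels' protocols. The submitters' processing notes name bcl2fastq 1.8.3, TopHat, Cufflinks and mm10, with no version of TopHat or Cufflinks. The deposited FPKM values are the authors' estimates for 63241 transcripts per library, per the file headers. The deposited coverage, a mean depth per transcript, was used in no test. Groups follow the gate in each label, and replicates are numbered in listed order.

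Transcripts were named by mm10 position from GENCODE M21 and RefSeq (86.0% named; span overlap of at least 0.5 where no end matched). Those under 300 nt were left out, and FPKM was summed per gene. The 7 genes with a failed estimate were left out. A gene needed 1 FPKM in 2 or more libraries to be tested (12507 genes). The test was limma 3.58.1 (R 4.3.3) applied to log2(FPKM + 1), which understates changes of low genes. A mean per group was fitted to all 10 libraries, with eBayes with trend, 6 residual degrees of freedom and Benjamini-Hochberg adjustment. The code was tested on simulated data. Depth was read from 5862 isolated transcripts, where 93.0% to 94.5% of the low values came within 0.05 of whole fragments; counts could not be rebuilt for genes with several transcripts, so no count model was used. At 1 FPKM a transcript of 3000 nt rests on about 57.0 to 76.5 fragments. Near-identical relatives may share reads, and an exact 0 can be a failed estimate.

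The members and lists were chosen with earlier results of these data known. Values in every library are given for Mmp7, Timp1, Adamts1, members with a group mean of 50 FPKM or more, and the 6 largest called increases and decreases per comparison. Other members appear by counts and ranges, or were named after their values were seen. Alternatives were pseudocounts of 0.1 and 0.25, no filter, a filter at 5 FPKM, median-of-ratios and quantile scaling, the highest transcript per gene, short transcripts kept, only the 2 groups compared, no trend, and leaving out each library. Figures were drawn with matplotlib 3.10.9 in Python 3.11.15. The level of a leukocyte marker in the fixed list is not reported here.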

Additional observations from a re-analysis of the deposited data

How the results depend on the processing

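The number of members called held within 1.5 times of its value for most alternatives. A filter at 5 FPKM left 23 members, of which 20 in place of 34 were called between stromal and Sca-1- luminal libraries and 13 in place of 25 between stromal and basal libraries. With only the 2 groups in the fit, 18 in place of 11 were called between basal and Sca-1- luminal libraries. With Sca-1+ luminal replicate 3 alone, an alternative added after seeing the data, 2023 genes in place of 4424 and 10 members in place of 21 were called. Leaving out 1 library at a time gave 4359 to 7119 genes and 25 to 35 members for stromal against Sca-1- luminal, and 3727 to 6470 genes and 7 to 17 members for basal against Sca-1- luminal. It gave 2732 to 5238 genes and 16 to 28 members for Sca-1+ against Sca-1- luminal, and 1154 to 3603 genes and 7 to 32 members for stromal against basal. Leaving out a basal or stromal library leaves that arm with 1 sample, which is assumed to vary like the other groups.

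Of 60 differences of named members 46 were called, and 28 of these stayed called in the same direction in every setting run. Of those not called, Mmp3, Timp2, Mmp2 and Adamts4 in basal against Sca-1- luminal libraries were called higher in 5, 4, 3 and 2 settings. Of 1202 alternatives 10 reversed a sign, none of a call that stayed past the threshold. With the highest transcript per gene, which for Adam15 kept the shorter transcript alone, Adam15 in basal against Sca-1- luminal libraries turned from -1.76 to 1.61. Over the fits without 1 library, Timp1 in the same comparison ran from -0.92 (without Sca-1- luminal replicate 3) to 1.17, at -0.51 without basal replicate 2. In Sca-1+ against Sca-1- luminal libraries Timp1 ran from -0.03 (without Sca-1- luminal replicate 3) to 2.06, and stood at -0.18 with Sca-1+ luminal replicate 3 alone. Adam8 in stromal against Sca-1- luminal libraries ran from -0.55 (without stromal replicate 2) to 0.91, at -0.39 without Sca-1- luminal replicate 3. In stromal against basal libraries Adamts1 ran from -0.61 to 0.34 (without basal replicate 1), Timp4 from -0.48 to 0.38 (without stromal replicate 1) and Mmp7 from -0.38 (without stromal replicate 2) to 1.18. The cause of the sign changes other than that of Adam15 was not tested. In Sca-1+ against Sca-1- luminal libraries 61.93% of called genes were higher, against 46.42% under median-of-ratios scaling and 40.32% under quantile normalization, as the median of all genes moved from 0.19 to 0.02 and -0.07. No paired analysis was possible because the labels carry no replicate numbers.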
